A study of Mus musculus with 36 samples.

Results

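The primary (azurophil) granule genes described here are Mpo, Elane, Prtn3, Ctsg, Ms4a3 and Prss57. They were chosen by symbol, and all 6 were found among the 24411 genes of both deposited expression tables. The data are RNA-seq of haematopoietic stem and progenitor cells (HSPC) from mouse bone marrow, either control or with a conditional knockout of Taf1, the gene of the largest subunit of the general transcription factor TFIID. HSPC were sampled at day 0, after culture in stem cell factor (SCF) and IL-3 at day 3, and then in either of 2 cytokine courses. In the macrophage course the cells received GM-CSF and M-CSF up to day 5 and M-CSF alone up to day 7. In the granulocyte course they received SCF, IL-3 and G-CSF up to day 5 and G-CSF alone up to day 7. Both genotypes were cultured alike, in medium with horse serum, and each of the 12 groups of genotype, day and course had 3 libraries, 36 in all. The sources used here do not give the way of inducing the deletion, the exons removed or whether the 3 replicates came from separate mice. The p-values therefore speak of the spread among these libraries, which may be technical.

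Primary granules are the first granules that a neutrophil precursor makes, at the promyelocyte stage, and their genes are switched off again as the cell matures towards the myelocyte and the secondary granules form. They carry a peroxidase and a family of serine proteases that kill and digest microbes after the granule fuses with a phagosome. The transcripts are therefore used as marks of granulocyte-monocyte progenitors and promyelocytes, and mature neutrophils hold the proteins with little of the mRNA. Mpo encodes myeloperoxidase, a haem enzyme that makes hypochlorous acid. Elane, Prtn3 and Ctsg encode the serine proteases neutrophil elastase, proteinase 3 and cathepsin G, Prss57 encodes a further granule serine protease, and Ms4a3 encodes a membrane protein of myeloid progenitors used to trace granulocytes and monocytes.

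Prss57, Prtn3 and Elane lie together on chromosome 10 of mm10 (GENCODE M21). Prss57 occupies positions 79781474 to 79790961 on the minus strand, Prtn3 positions 79874476 to 79883174 on the plus strand and Elane positions 79886247 to 79888215 on the plus strand. The gap between Prtn3 and Elane is 3072 bases, and that between Prss57 and Prtn3 is 83514 bases. Mpo lies on chromosome 11 (87793581 to 87804413, plus strand), Ctsg on chromosome 14 (56099881 to 56102574, minus strand) and Ms4a3 on chromosome 19 (11629496 to 11640851, minus strand). All 6 are annotated as protein-coding.

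RefSeq promoter windows (GRCm38.p6), 300 bases long and running from -250 to 50 around the start of a gene, were matched for 5 of the 6 genes, all but Prss57. The letters GAGGAA, a core of sites bound by ETS factors such as PU.1, were found on either strand in 5 of these 5 windows, against 28.3% of 32851 windows of the same length. Stretches of 120 bases from 4 windows are printed because they show these letters in the neighbouring genes Elane and Prtn3 and in Mpo and Ctsg. Capitals mark GAGGAA, and also TATAA on the plus strand. Elane is shown at chr10:79886192-79886311 (plus strand), Prtn3 at chr10:79879547-79879666 (plus), Mpo at chr11:87793534-87793653 (plus) and Ctsg at chr14:56102705-56102824 (minus), each 5′ to 3′. For Elane, Prtn3 and Mpo the RefSeq start differs from the GENCODE gene start given above. The Prtn3 stretch lies wholly inside its GENCODE gene span, and those of Elane and Mpo lie partly inside theirs.
Elane: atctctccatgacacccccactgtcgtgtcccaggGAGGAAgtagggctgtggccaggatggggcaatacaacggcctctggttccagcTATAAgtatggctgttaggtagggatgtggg
Prtn3: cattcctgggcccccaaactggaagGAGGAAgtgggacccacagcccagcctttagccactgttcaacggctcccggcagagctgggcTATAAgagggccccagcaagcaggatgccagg
Mpo: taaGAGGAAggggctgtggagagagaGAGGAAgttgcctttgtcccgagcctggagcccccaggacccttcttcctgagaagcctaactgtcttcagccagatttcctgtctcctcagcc
Ctsg: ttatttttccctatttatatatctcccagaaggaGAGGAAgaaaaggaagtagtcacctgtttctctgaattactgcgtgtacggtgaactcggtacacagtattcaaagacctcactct

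Counted from the RefSeq start, with the base before it as -1, GAGGAA begins at -85 in Elane, at -95 in Prtn3, at -247 and -224 in Mpo, at -216 in Ctsg and at 36 after the start in Ms4a3. The letters TATAA, searched for after these sequences had been seen, begin at -31 in Elane and at -32 in Prtn3, and Ctsg has them on the minus strand at -236, so 3 of 5 windows hold them against 24.9% of all. Other motifs were searched on both strands. TTNNGNAA, a C/EBP site pattern, was present in 1 of 5 windows (Ms4a3) against 40.7% of all, TGTGGT, a RUNX core, in 1 (Ctsg) against 16.8%, and AACNG, a MYB core, in 4 (all but Ms4a3) against 80.3%. TATAAA was present in 1 (Ctsg, minus strand, overlapping its TATAA) against 13.6%. These are matches of letters, and binding was not measured here.

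Values are TPM, transcript abundances scaled for transcript length and for each library's total, and the depth of reads behind them is unknown. Taf1, the targeted gene, was at 9.62 to 16.3 TPM in the control libraries and at 5.94 to 10.3 TPM in the knockout libraries. Its libraries did not overlap between genotypes at 5 of the 6 stages. At day 3 they did, with a difference of -0.17 ± 0.08 (SE) on the log2(TPM + 1) scale and a limma adjusted p of 0.0711. Markers of T cells and B cells summed to under 1 TPM in every library (0 to 0.93 TPM). S100a8 and S100a9, the abundant calprotectin genes of maturing neutrophils, together took 0.109% to 23.4% of a library's TPM. A few libraries stood apart from the others of their group in the genes described here: the day 3 control replicate 1, the day 5 control replicate 1 of both courses, the day 7 macrophage control replicate 3 and the day 7 knockout replicate 1 of both courses. Where leaving 1 of them out changed a call or moved a mean or fold by over 1.5 times, the value without it is given. Overlap of libraries between groups was looked at only in the genes and lists described here. It was not counted over all genes, so it is a description and not a result about these genes.

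All 6 genes were highest in day 0 HSPC and lowest at day 7 of the macrophage course, and their summed level in knockouts passed from above that in controls at day 3 to below it at day 5. Together they made up 14298 ± 3636 TPM (SD, n = 3) in day 0 controls, 1.43% of all transcripts, and 18388 ± 2458 TPM in day 0 knockouts. At day 3 the sums were 3409 ± 1087 TPM in controls and 5715 ± 699 TPM in knockouts. At day 5 they were 2805 ± 351 and 1333 ± 242 TPM in the macrophage course, and 3419 ± 815 and 2162 ± 139.6 TPM in the granulocyte course. At day 7 the macrophage course was down to 902 ± 522 TPM in controls and 609.6 ± 392 in knockouts, whereas the granulocyte course stood at 3490 ± 683 TPM in controls and 1449 ± 1012 in knockouts. Without their replicate 1 the day 7 knockout sums were 383.7 TPM in the macrophage course and 865 TPM in the granulocyte course, and without replicate 3 the day 7 macrophage controls were at 1203 TPM. In bulk RNA, fewer cells of a type and less RNA per cell cannot be told apart.

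**Figure D1:**
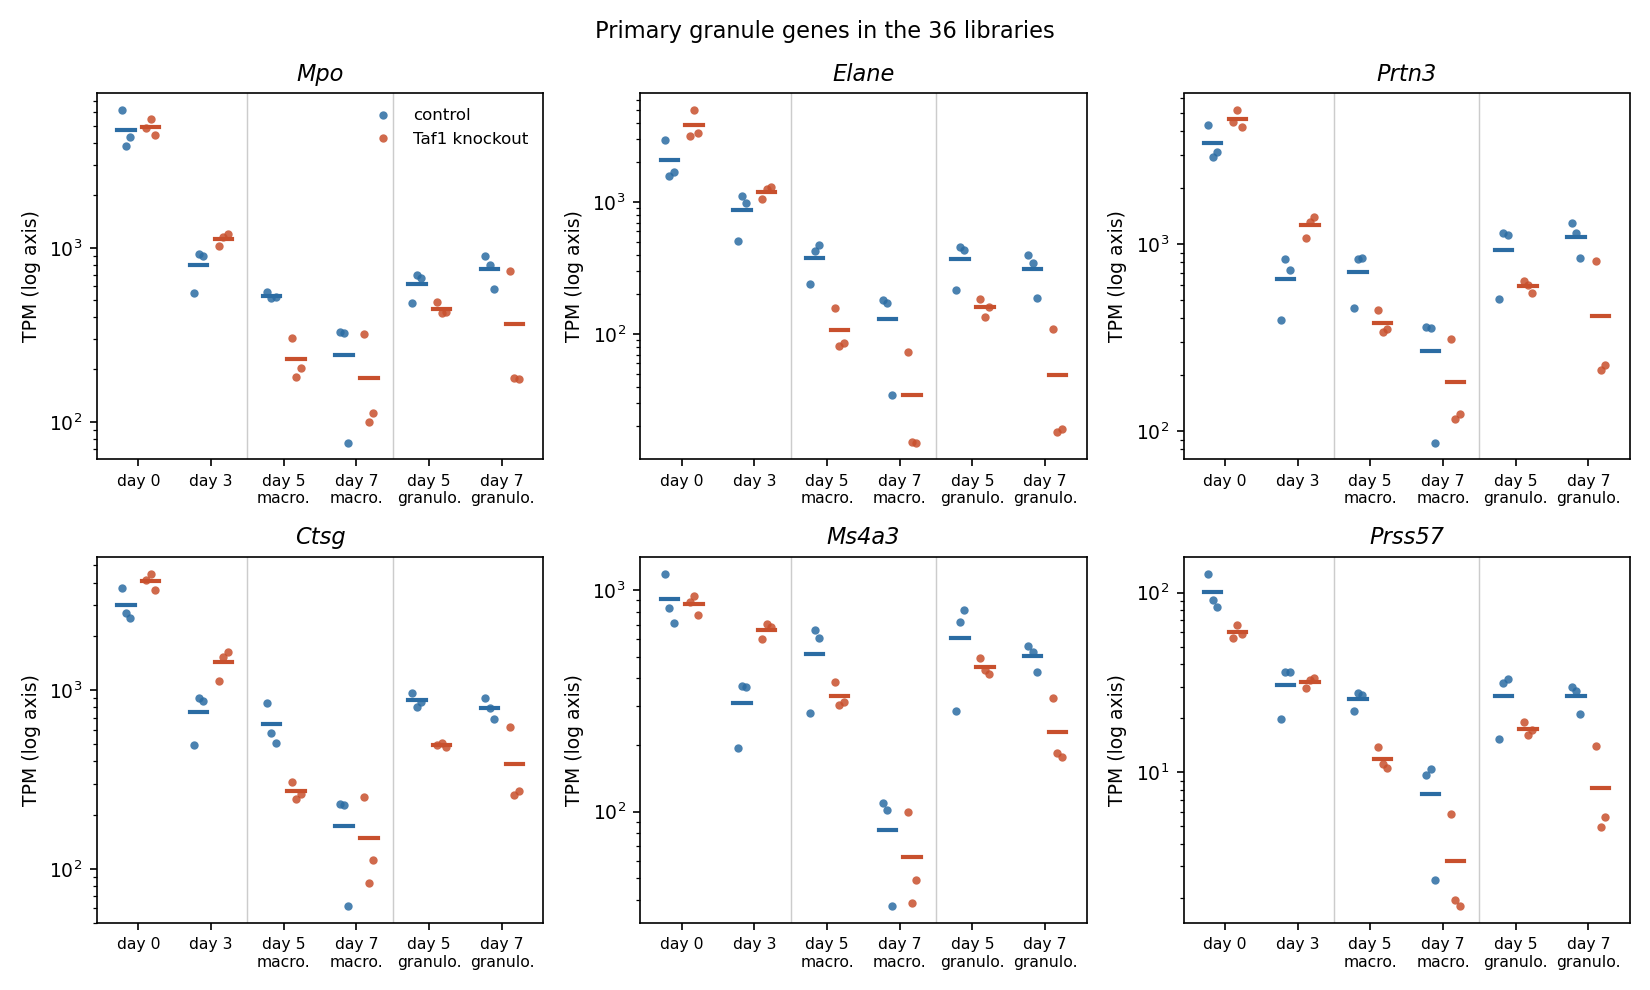
TPM of each gene (log axis) in the 36 libraries, with 1 point per library, bars at the group means, controls in blue and Taf1 knockouts in orange. Every gene is highest at day 0; at day 3 the knockout points lie above the controls for Mpo, Prtn3, Ctsg and Ms4a3, overlap with them for Elane, and for Prss57 lie below 2 of the 3 controls, and from day 5 on they lie mostly below the controls.

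Mpo was the most abundant of the 6 in both day 0 groups. Control libraries held 6179, 3832 and 4328 TPM (replicates 1 to 3) at day 0 and 549, 927 and 900.0 TPM at day 3. The macrophage course libraries held 557, 517 and 519 TPM at day 5 and 327, 322 and 75.9 TPM at day 7. Day 7 replicate 3 was thus far below the other 2, and all day 7 libraries lay below all day 5 libraries. The granulocyte course controls held 483, 696 and 668 TPM at day 5 and 892, 799.7 and 582 TPM at day 7, with overlapping ranges. Ordered by mean over all 12 groups, Mpo ran from 4930 TPM in day 0 knockouts to 178 TPM in day 7 macrophage-course knockouts (106 TPM without their replicate 1), and 8 of the 11 neighbouring pairs of groups in that order overlapped.

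Elane covered the widest range, 111-fold between its highest group mean (day 0 knockouts, 3824 ± 1010 TPM) and its lowest (day 7 macrophage-course knockouts, 34.4 ± 33.3 TPM). That lowest mean rested on replicate 1, without which it was 15.1 TPM and the span 253-fold. The spans of the other 5 genes without this library were 20.8-fold (Ms4a3) to 53.75-fold (Prss57), with Elane again the widest and Ms4a3 the flattest. Controls held 2972, 1572 and 1694 TPM at day 0, 512, 1107 and 983 TPM at day 3, 239, 426 and 474 TPM at day 5 of the macrophage course and 180.2, 173 and 34.4 TPM at day 7 of it. Granulocyte course controls held 216, 458 and 434 TPM at day 5 and 400.45, 346 and 189.7 TPM at day 7. Elane had the highest mean of the 6 in day 3 controls, although Mpo was above it in their replicate 1 (549 against 512 TPM). It was only the fifth in controls at day 5 of either course. In its order of group means 7 of 11 neighbours overlapped.

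Prtn3, the neighbour of Elane, had the highest mean of the 6 in every group from day 5 on. In day 7 granulocyte-course knockouts this rested on replicate 1, without which Ctsg was higher (266 against 219 TPM). Ctsg was also above Prtn3 in day 5 control replicate 1 of both courses, and Mpo in day 7 macrophage-course knockout replicate 1. For Prtn3, controls held 4311, 2919.7 and 3093 TPM at day 0, 394, 828 and 729.6 TPM at day 3, and 454, 833 and 837 TPM at day 5 of the macrophage course. They then held 359, 358 and 86.9 TPM at day 7. Granulocyte course controls held 510.0, 1142 and 1119.5 TPM at day 5 and 1293, 1150.5 and 836 TPM at day 7. Replicate 1 was the lowest at day 3 and at day 5 in both courses, and not at day 0 or day 7. Its group means spanned 25.2-fold (38.8-fold without day 7 macrophage-course knockout replicate 1), with 10 of 11 neighbours overlapping.

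Ctsg followed another order among the replicates at day 5. Controls held 3706, 2700.1 and 2543 TPM at day 0, 495, 907 and 873 TPM at day 3, 852, 573 and 503 TPM at day 5 of the macrophage course and 968, 807 and 854 TPM at day 5 of the granulocyte course. Replicate 1 was thus the highest in both day 5 groups, where it was the lowest for Elane, Prtn3, Ms4a3 and Prss57. At day 7 controls held 229, 226 and 61.8 TPM in the macrophage course and 901, 796 and 688 TPM in the granulocyte course. Group means spanned 27.5-fold (41.9-fold without day 7 macrophage-course knockout replicate 1) and 7 of 11 neighbours overlapped.

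Prss57 was the least abundant of the 6 in all 12 groups, at 0.329% to 0.914% of their summed TPM. Controls held 127, 91.4 and 83.5 TPM at day 0 and 19.8, 36.2 and 35.95 TPM at day 3. In the macrophage course they held 22.1, 27.8 and 27.0 TPM at day 5 and 9.64, 10.5 and 2.53 TPM at day 7, and in the granulocyte course 15.3, 31.3 and 33.0 TPM and 29.9, 28.2 and 21.2 TPM. Unlike the 3 other protease genes it was highest in day 0 controls (101 ± 23.4 TPM) and lower in day 0 knockouts (60.2 ± 5.26 TPM), whose libraries did not overlap with them. Of its 11 neighbouring pairs 7 overlapped.

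Ms4a3 had the flattest course, 14.6-fold between its highest and its lowest group mean. Controls held 1190.3, 835 and 716 TPM at day 0 and 194, 370.4 and 366 TPM at day 3. At day 5 they held 278, 665 and 611 TPM in the macrophage course and 286, 719 and 814 TPM in the granulocyte course, so that replicates 2 and 3 had regained much of the day 0 level. At day 7 they held 109, 102 and 37.4 TPM and 563, 529 and 426 TPM. In its order of means 8 of 11 neighbours overlapped.

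Changes over each culture step were tested with limma on log2(TPM + 1), with p-values adjusted by Benjamini and Hochberg over all genes tested and a threshold of 0.05. In controls all 6 genes fell from day 0 to day 3, where 73% of all genes tested passed, 33.3% higher and 39.6% lower. The log2 difference was -2.60 ± 0.43 (SE) for Mpo (limma adjusted p = 1.75e-05), -2.45 ± 0.43 for Prtn3 (3.60e-05), -2.01 ± 0.40 for Ctsg (0.000157), -1.71 ± 0.35 for Prss57 (0.000201), -1.58 ± 0.38 for Ms4a3 (0.000926) and -1.27 ± 0.56 for Elane (0.0465). The Elane call was lost when any of 5 single libraries was left out (-0.93 to -1.45, adjusted p 0.0506 to 0.191: day 0 replicates 1, 2 and 3 and day 3 replicates 1 and 3). Their median was -1.86, against -0.07 over all genes. Over the same step 13 of 14 secondary and tertiary granule genes rose in controls (median 6.39), among them Mmp8, neutrophil collagenase, from 1.01 to 153 TPM. Mast cell and basophil markers rose too (7 of 11 tested; sums of 266 to 811 TPM at day 0 and 1606 to 2270 TPM at day 3), as did 11 of 12 macrophage markers (182 to 255 TPM and 758 to 1057 TPM). Their part in the fall was not tested.

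Between day 3 and day 5 none of the 6 passed the test in the macrophage course controls (50.3% of all genes passed, 25.6% higher and 24.6% lower; log2 differences of -1.17 for Elane to 0.70 for Ms4a3, none with an unadjusted p under 0.05 except Elane, whose limma adjusted p was 0.0875). Without day 5 replicate 1, Ms4a3 passed there (1.10, adjusted p 0.0216). In the granulocyte course, where 44.3% of all genes passed (23.4% higher, 20.8% lower), Ms4a3 rose by 0.89 ± 0.31 (adjusted p = 0.0247) and Elane fell by 1.23 ± 0.48 (0.0441), and the other 4 did not pass. Both calls depended on single libraries. That for Ms4a3 was lost without day 3 replicate 1 (0.58, adjusted p 0.161) or day 5 replicate 2 or 3 (0.70 and 0.61), and that for Elane without day 3 replicate 2 or 3 (-1.02 and -1.10) or day 5 replicate 1 or 3 (-0.88 and -1.38). With replicates 2 and 3 of every group only, 4 of the 6 passed in this step, among 6515 of all genes (5268 in the main fit). Both courses share the day 3 libraries.

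From day 5 to day 7 the courses parted. In the macrophage course all 6 genes fell in controls, where 39.1% of all genes passed, 22.9% higher and 16.2% lower. The log2 difference was -2.67 ± 0.38 for Ms4a3 (limma adjusted p = 1.09e-05), -2.08 ± 0.40 for Ctsg (0.000325), -1.81 ± 0.35 for Prss57 (0.000333), -1.81 ± 0.56 for Elane (0.0136), -1.60 ± 0.43 for Prtn3 (0.00545) and -1.40 ± 0.43 for Mpo (0.0133). No day 7 library reached a day 5 library for these genes, and such gaps were not counted over all genes. Without day 7 replicate 3, the library with the lowest values, 3 of the 6 passed (Ctsg, Ms4a3 and Prss57), and Mpo, Elane and Prtn3 were at -0.71 (adjusted p 0.133), -1.04 (0.132) and -0.93 (0.0541). Without day 5 replicate 3 Elane was at -1.62 with an adjusted p of 0.0529. Macrophage markers rose over this step in 9 of 12 cases, and their sum was highest in the same day 7 replicate 3 (3467 TPM against 2552 and 2650). Its part in the low values was not tested. The granulocyte course controls gave no call among the 6 (limma; differences of -0.24 for Elane to 0.31 for Prtn3, 0 at an unadjusted p under 0.05, and 38% of all genes passed, 10% higher and 28% lower). With replicates 2 and 3 only, 3 of the 6 passed there, among 4594 of all genes (4521 in the main fit).

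As a direct test of the courses, macrophage libraries were compared with granulocyte libraries of the same day. At day 5 none of the 6 differed in controls (limma; 3.01% of all genes passed, 0.961% higher and 2.05% lower; log2 differences of -0.48 to 0.05, 0 at an unadjusted p under 0.05). At day 7, 5 of the 6 were lower in the macrophage course, where 43.8% of all genes passed (34% higher, 9.81% lower). None of the 6 overlapped there, and overlap was not counted over all genes. The difference was -2.73 ± 0.43 for Ms4a3 (adjusted p = 8.15e-05), -2.41 ± 0.42 for Ctsg (0.000204), -2.26 ± 0.53 for Prtn3 (0.0022), -1.85 ± 0.41 for Prss57 (0.00154) and -1.89 ± 0.53 for Mpo (0.00747). Elane was at -1.52 ± 0.68 with an adjusted p of 0.0781, and at 0.0261 with the replicate number as a block, and it passed without macrophage replicate 1 (-1.92, 0.0483). Without macrophage replicate 3, Mpo was at -1.20 with an adjusted p of 0.0718. Mast cell and basophil markers were also lower in the macrophage course (9 of 11; 79.4 to 528 TPM against 1740 to 2281 TPM), and the part of such cells in the difference was not tested.

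Between genotypes, none of the 6 passed at day 0 (limma; 23.3% of all genes passed, 13.1% higher and 10.2% lower; 0 of the 6 at an unadjusted p under 0.05). Elane held 3151, 4986 and 3336.5 TPM in knockouts, all above the controls (0.91 ± 0.56, adjusted p 0.259). Prss57 held 56.0, 66.1 and 58.5 TPM, all below the controls (-0.71 ± 0.35, 0.154). The other 4 overlapped, with Mpo at 4885, 5482 and 4422 TPM, Prtn3 at 4487, 5184 and 4203 TPM, Ctsg at 4116, 4486 and 3642 TPM and Ms4a3 at 889, 944 and 771 TPM. Fitted on the 6 day 0 libraries alone, 3 of the 6 passed, among 2306 of all genes (2790 in the main fit). At this stage 3 of 6 monocyte markers (547.2 to 681 TPM summed in knockouts, 1206 to 1813 TPM in controls) and 5 of 11 mast cell and basophil markers (156 to 279.9 TPM and 266 to 811 TPM) were lower in knockouts. Summed late neutrophil markers, mostly S100a8 and S100a9, were higher in knockouts (11130 to 27620 TPM against 1188 to 5161 TPM). The part of such cells in the differences was not tested.

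At day 3 the estimates were above 0 for all 6 genes, except that Prss57 (0.10) turned to -0.18 without control replicate 1 and to -0.12 with replicates 2 and 3 only, and 1 passed the test, where 53.2% of all genes did (26.5% higher, 26.7% lower). Ms4a3 held 601, 706 and 682 TPM in knockouts, well above all controls (1.15 ± 0.38, adjusted p = 0.0157). Prtn3 held 1079.6, 1307 and 1393 TPM (1.01 ± 0.43, adjusted p 0.0540), Ctsg 1128, 1527 and 1633 TPM (0.95 ± 0.40, 0.0545) and Mpo 1018, 1159 and 1201 TPM (0.54 ± 0.43, 0.302), again without overlap. Elane at 1065, 1249 and 1301 TPM and Prss57 at 29.5, 32.7 and 33.4 TPM overlapped with the controls. Without control replicate 1, the lowest library, Ms4a3 did not pass (0.84, adjusted p 0.102), and without control replicate 2 there were 2 calls. The same libraries gave 3 calls in the granulocyte course fit, among 5951 of all genes. They gave 4 when fitted alone, among 6462 (6355 in the main fit). Macrophage markers were lower in knockouts at this stage in 11 of 12 cases (189 to 316 TPM against 758 to 1057 TPM), with C1qa under 1 TPM in all 3. Summed late neutrophil markers, mostly S100a8 and S100a9, were higher in knockouts (126500 to 141400 TPM against 73330 to 89920 TPM). The part of either cell type in the difference was not tested.

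At day 5 of the macrophage course 4 of the 6 were lower in knockouts, where 43% of all genes passed (5.11% higher, 37.9% lower). Elane held 158, 81.4 and 85.45 TPM (-1.81 ± 0.56, adjusted p = 0.0135), Mpo 301.5, 182 and 202 TPM (-1.25 ± 0.43, 0.0248), Ctsg 308, 247 and 263 TPM (-1.20 ± 0.40, 0.0209) and Prss57 13.8, 11.1 and 10.5 TPM (-1.06 ± 0.35, 0.0206). These 4 and Prtn3, at 442, 337 and 353 TPM (-0.86 ± 0.43, 0.112), had no overlap with the controls, which was not counted over all genes. Ms4a3, at 387, 305 and 313 TPM, overlapped because control replicate 1 was low (-0.54 ± 0.38, 0.263). The median over the 6 was -1.13, against -0.23 over all genes, of which 611 of the 5143 that passed were higher in knockouts. With median-of-ratios scaling the median of all genes was -0.02, 2233 of 4593 were higher, and only Elane passed (-1.55, adjusted p 0.0442).

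The day 5 macrophage calls also rested on single libraries. No gene passed without knockout replicate 2, 1 passed without knockout replicate 3 or control replicate 3, 2 without control replicate 1 and 3 without control replicate 2. All differences stayed negative in these fits, -0.98 to -1.26 for Mpo, Ctsg and Prss57 where their call was lost and -1.62 and -1.64 for Elane. Macrophage markers were lower in 11 of 12 cases (521 to 582 TPM in knockouts, 1060 to 1322 TPM in controls). S100a8 and S100a9 took 17.8% to 23.4% of the knockout TPM and 4.93% to 14.5% of the control TPM. Their part in the differences was not tested.

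At day 7 of the macrophage course 2 of the 6 were lower in knockouts (39.9% of all genes passed, 27.4% higher and 12.5% lower), and all 6 overlapped between genotypes. Elane held 72.8, 15.2 and 15.1 TPM (-1.96 ± 0.56, adjusted p = 0.00906) and Prss57 5.85, 1.95 and 1.80 TPM (-0.98 ± 0.35, 0.0331). Mpo at 320.4, 99.5 and 113 TPM, Prtn3 at 312, 115 and 123 TPM, Ctsg at 251, 83.2 and 112 TPM and Ms4a3 at 99.9, 38.8 and 49.1 TPM had differences of -0.44 to -0.15 and did not pass. Knockout replicate 1 was the highest of its group and control replicate 3 the lowest of its group for all 6, and for each gene the former lay above the latter. Without control replicate 3 there were 4 calls, and without control replicate 1 or 2 or knockout replicate 2 or 3 there were none. Elane then had an adjusted p of 0.0574 to 0.0621. Monocyte markers were lower in 3 of 6 cases (178.5 to 381 TPM against 519 to 1344 TPM), and their part in the differences was not tested.

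The granulocyte course at day 5 gave smaller differences than day 5 of the macrophage course, and 1 of the 6 passed among 32% of all genes (9.2% higher, 22.8% lower). The difference in knockout effect between the courses passed for none of the 6. Ctsg held 491, 503 and 479 TPM in knockouts, below all controls (-0.83 ± 0.26, adjusted p = 0.0181), and did not pass without control replicate 1 (-0.76, adjusted p 0.0585), when 3 other genes did. Elane held 186, 136 and 161 TPM, also below all controls (-1.13 ± 0.48, 0.0799). Mpo at 489, 424 and 425 TPM, Prtn3 at 635, 607 and 544 TPM, Ms4a3 at 496, 436 and 420.2 TPM and Prss57 at 19.0, 16.1 and 17.2 TPM overlapped with the controls because control replicate 1 was low. With replicates 2 and 3 only, an alternative chosen after the data were seen, all 6 passed, among 4332 of all genes (3806 in the main fit). Macrophage markers were lower in 11 of 12 cases (270.2 to 443 TPM against 849 to 1236 TPM), with C1qa under 1 TPM in all 3 knockouts, and their part was not tested.

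At day 7 of the granulocyte course all 6 genes were lower in knockouts, against 44.1% of all genes that passed, 32.1% higher and 12% lower. Elane held 109, 18.0 and 19.1 TPM, all below the controls (-3.10 ± 0.48, adjusted p = 4.20e-05), and its mean was 6.41-fold lower, or 16.8-fold lower without knockout replicate 1 (18.6 against 312 TPM). Prss57 held 14.0, 4.99 and 5.66 TPM (-1.69 ± 0.30, 0.000142) and Prtn3 807, 212 and 225 TPM (-1.67 ± 0.38, 0.00159), both without overlap. Mpo held 739.8, 178 and 175 TPM, of which replicate 1 lay within the control range (-1.39 ± 0.36, 0.00416). Ms4a3 held 326, 184 and 176 TPM (-1.19 ± 0.31, 0.00411) and Ctsg 623, 259 and 274 TPM (-1.16 ± 0.26, 0.00128), both without overlap. The median over the 6 was -1.53, against 0.17 over all genes. All 6 passed in every fit that left out 1 library and under median-of-ratios scaling, and Mpo did not pass in a fit of these 6 libraries alone (adjusted p 0.0711).

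In knockout replicate 1 of this group the 6 genes summed to 2618 TPM, against 856 TPM in the lowest of the 3. The same replicate had the lowest sum of mast cell and basophil markers, 2100 TPM against 5934 and 6872 TPM, while controls had 1740 to 2281 TPM. These markers were higher in knockouts in 8 of 11 cases, with Tpsab1 under 1 TPM in all, and stem and progenitor markers in 9 of 10 cases (120.3 to 244 TPM against 51.9 to 73.2 TPM), with Hlf and Mecom under 1 TPM. Macrophage markers were lower in 10 of 12 cases (1198 to 1431 TPM against 2002 to 2968 TPM) and monocyte markers in 5 of 6 (228 to 329.6 TPM against 1386 to 1785 TPM). The summed late neutrophil markers overlapped between genotypes (149960 to 169230 TPM in knockouts and 117610 to 165320 TPM in controls). That sum is nearly all S100a8 and S100a9, which took 14.5% to 16.3% of the knockout TPM and 11.1% to 15.5% of the control TPM. It therefore does not show the direction of the other members of that list. The part of all these cell types in the difference was not tested.

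**Figure D2:**
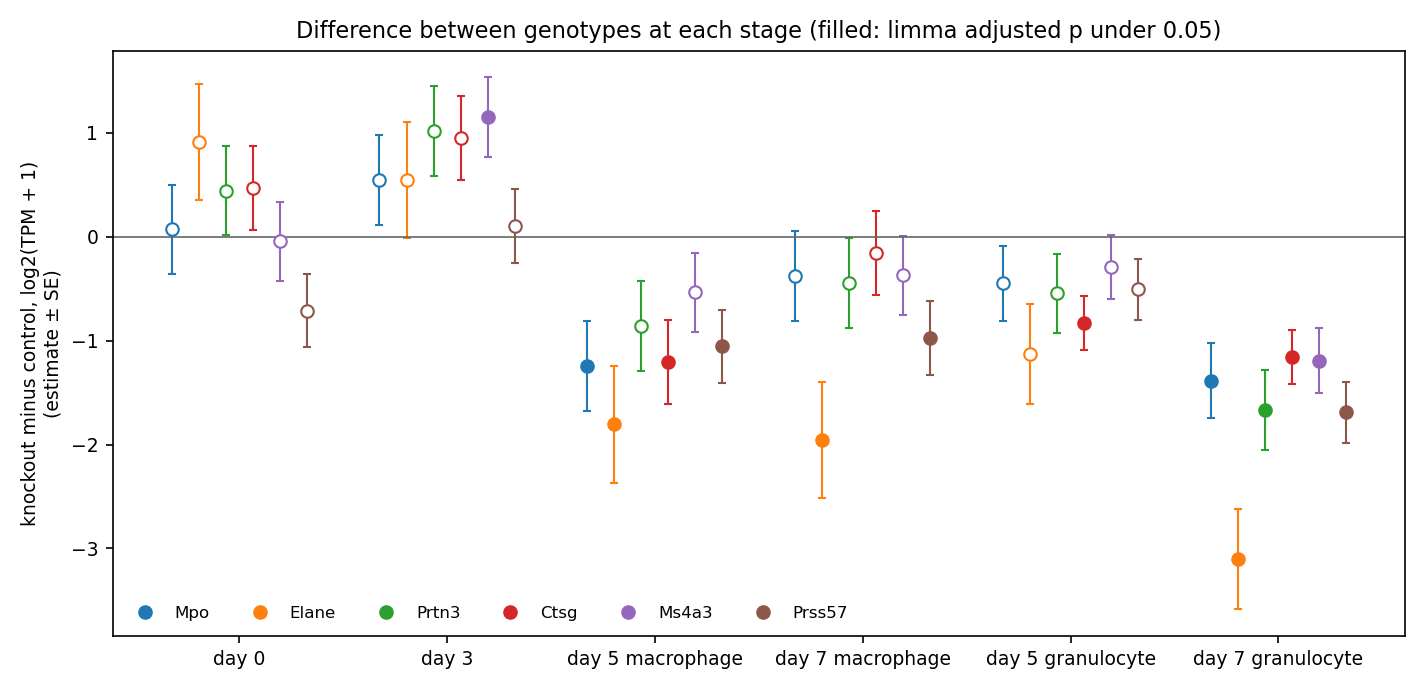
Knockout minus control for each gene at each stage, on the log2(TPM + 1) scale, with the limma estimate as a point and its standard error as a bar; filled points passed an adjusted p of 0.05 over all genes tested. Estimates run from -0.71 to 1.15 at day 0 and day 3 and are below 0 for every gene at the 4 later stages, with Elane the lowest at each of them.

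The turn between day 3 and day 5 was tested as the difference between the knockout step and the control step. For the macrophage course 5 of the 6 passed, where 34.7% of all genes did (5.44% higher, 29.2% lower): Elane at -2.35 ± 0.79 (adjusted p = 0.0265), Ctsg at -2.15 ± 0.57 (0.00676), Prtn3 at -1.88 ± 0.61 (0.0224), Mpo at -1.79 ± 0.61 (0.0283) and Ms4a3 at -1.69 ± 0.54 (0.0206), with Prss57 at -1.16 ± 0.50 (0.0771). Within knockouts all 6 fell over this step, from -3.53 ± 0.56 for Elane (adjusted p = 4.41e-05) to -0.99 ± 0.38 for Ms4a3 (0.0340), where 55.7% of all genes passed (8.68% higher, 47% lower). That call of Ms4a3 was lost without day 3 or day 5 knockout replicate 2 or 3 (-0.93 to -0.97, adjusted p 0.0770 to 0.0878). Over the same days of the granulocyte course 3 of the 6 passed (21.4% of all genes, 5.57% higher and 15.9% lower): Ctsg at -1.78 ± 0.37 (0.00196), Prtn3 at -1.56 ± 0.54 (0.0441) and Ms4a3 at -1.44 ± 0.44 (0.0221). Within knockouts Elane fell by 2.90 ± 0.48 (0.000496), Ctsg by 1.52 ± 0.26 (0.000598) and Mpo by 1.33 ± 0.36 (0.0165) there, where 14.8% of all genes passed (3.57% higher, 11.2% lower). That call of Mpo was lost without day 3 or day 5 knockout replicate 2 or 3 (adjusted p 0.0557 to 0.0632). Both courses share the day 3 libraries, so these are not independent.

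Leaving out control day 3 replicate 1 left 1 call in each of these course tests, that of Ctsg, and median-of-ratios scaling did the same. In the macrophage course there were 3 calls without knockout day 3 replicate 2 or 3, knockout day 5 replicate 2 or 3 or control day 5 replicate 2, and 2 without control day 5 replicate 3. In the granulocyte course 1 gene passed without knockout day 3 replicate 2 or control day 5 replicate 2 or 3, 2 passed without knockout day 3 replicate 3 or any 1 knockout day 5 library, and 4 without control day 5 replicate 1.

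At the other steps no difference between genotypes passed (limma). Day 0 to day 3 gave differences of -0.36 for Elane to 1.20 for Ms4a3, of which the latter had an unadjusted p under 0.05 (adjusted p 0.0957), and 32.3% of all genes passed (15% higher, 17.3% lower). Within knockouts 5 genes fell over this step (58.8% of all genes, 22.8% higher and 35.9% lower), led by Mpo at -2.13 ± 0.43 (adjusted p = 0.000317), and Ms4a3 was at -0.39 ± 0.38 (0.399). The fall of Prss57, -0.90 ± 0.35 (0.0351), was lost without any 1 of the 6 libraries (adjusted p 0.0576 to 0.0919), and that of Elane, -1.64 ± 0.56 (0.0167), without day 0 replicate 2 or day 3 replicate 1 (0.0618 and 0.0519). Day 5 to day 7 gave -0.15 to 1.05 in the macrophage course (35.6% of all genes, 34.3% higher and 1.38% lower) and -1.97 to -0.33 in the granulocyte course (14.1%, 13.1% higher and 0.991% lower). In the latter Elane had an adjusted p of 0.0569 and Prss57 of 0.0617. Without knockout day 7 replicate 1 there were 5 calls, and without control day 5 replicate 2 or 3 or control day 7 replicate 3 there were 2. With replicates 2 and 3 only there were 6, among 2037 of all genes (1680 in the main fit).

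Within knockouts, 5 genes fell from day 5 to day 7 of the macrophage course (66.6% of all genes passed, 58.1% higher and 8.56% lower), with Ms4a3 at -2.51 ± 0.38 (adjusted p = 1.01e-05), Elane at -1.96 ± 0.56 (0.00439), Prss57 at -1.73 ± 0.35 (0.000246), Prtn3 at -1.19 ± 0.43 (0.0205) and Ctsg at -1.03 ± 0.40 (0.0305). Calls numbered 3 without day 5 replicate 1 or day 7 replicate 2 or 3, and 6 without day 7 replicate 1. Over day 5 to day 7 of the granulocyte course 3 fell (41.8% of all genes passed, 27.9% higher and 13.8% lower): Elane by 2.21 ± 0.48 (0.00103), Prss57 by 1.13 ± 0.30 (0.00431) and Ms4a3 by 1.03 ± 0.31 (0.0108). All 6 passed without day 7 replicate 1, and Ms4a3 did not pass without replicate 2 or 3 (adjusted p 0.0525 and 0.0602). Between the courses at day 7, 3 genes were lower in the macrophage course in knockouts (50.2% of all genes, 35.3% higher and 14.9% lower): Ms4a3 at -1.91 ± 0.43 (0.00129), Ctsg at -1.41 ± 0.42 (0.00956) and Prss57 at -1.13 ± 0.41 (0.0284). Without macrophage replicate 1 there were 5 calls, 2 calls without macrophage replicate 3, and 1 call without macrophage replicate 2 or granulocyte replicate 1. At day 5 none passed in knockouts (limma; -0.99 to -0.43; 18.1% of all genes, 3.21% higher and 14.9% lower). When these libraries were fitted alone 5 of the 6 passed, among 3980 of all genes (2090 in the main fit). Of the 6, 5 did not overlap, which was not counted over all genes. The difference in knockout effect between courses passed limma for none of the 6, with 0 at an unadjusted p under 0.05. It was -0.80 to -0.24 at day 5, where 0.251% of all genes passed (0.0866% higher, 0.164% lower). At day 7 it was 0.71 to 1.22, where 4.28% passed (1.84% higher, 2.45% lower). Every day 7 estimate was thus positive, with the smaller knockout fall in the macrophage course.

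The balance between the 6 genes within a library also differed between genotypes. The ratio of Elane to Prtn3, genes 3072 bases apart, did not overlap between genotypes at any of the 6 stages. At day 0 it was higher in knockouts, 0.819 ± 0.132 against 0.592 ± 0.0847 (SD, n = 3). The genotypes nearly met there, with the lowest knockout at 0.7022 and the highest control at 0.6895. At every later stage it was lower: 0.959 ± 0.0265 against 1.33 ± 0.0263 at day 3, 0.281 ± 0.0671 against 0.534 ± 0.028 at day 5 and 0.163 ± 0.0617 against 0.461 ± 0.0565 at day 7 of the macrophage course. The granulocyte course gave 0.271 ± 0.0407 against 0.404 ± 0.0181 at day 5 and 0.102 ± 0.0289 against 0.279 ± 0.0455 at day 7. A ratio within a library does not depend on how that library was scaled. The day 7 libraries that stood apart in level moved in this ratio too, towards the other genotype without reaching it. Control macrophage replicate 3 had 0.396, between the other controls (0.485 and 0.501) and the highest knockout (0.234). Knockout replicate 1 had 0.234 in the macrophage course (0.131 and 0.123 in replicates 2 and 3) and 0.135 in the granulocyte course (0.085 and 0.0848). These ratios were chosen after the values had been seen and are given with no test. Overlap of such ratios was not counted over all pairs of genes.

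Prss57 relative to Prtn3 was 2.24-fold lower in knockouts at day 0 (0.0131 against 0.0293), 1.88-fold lower at day 3 (0.0255 against 0.0477) and 1.69-fold lower at day 7 of the macrophage course (0.0168 against 0.0284), without overlap, and overlapped at the 3 other stages. Mpo relative to Prtn3 was lower in knockouts at day 0 (1.07 against 1.38) and day 3 (0.897 against 1.25) and higher at day 7 of the granulocyte course (0.845 against 0.694), again without overlap. Ctsg relative to Prtn3 overlapped at 5 stages, among them day 0 (0.883 in knockouts against 0.869 in controls), day 3 (1.13 against 1.18) and day 7 of the granulocyte course (1.07 against 0.737), and was higher without overlap at day 7 of the macrophage course (0.811 against 0.661). Ms4a3 relative to Prtn3 was lower in knockouts at day 0 (0.188 against 0.2645) and higher at day 5 of the macrophage course (0.888 against 0.713), without overlap, and overlapped at the other 4 stages.

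**Figure D3:**
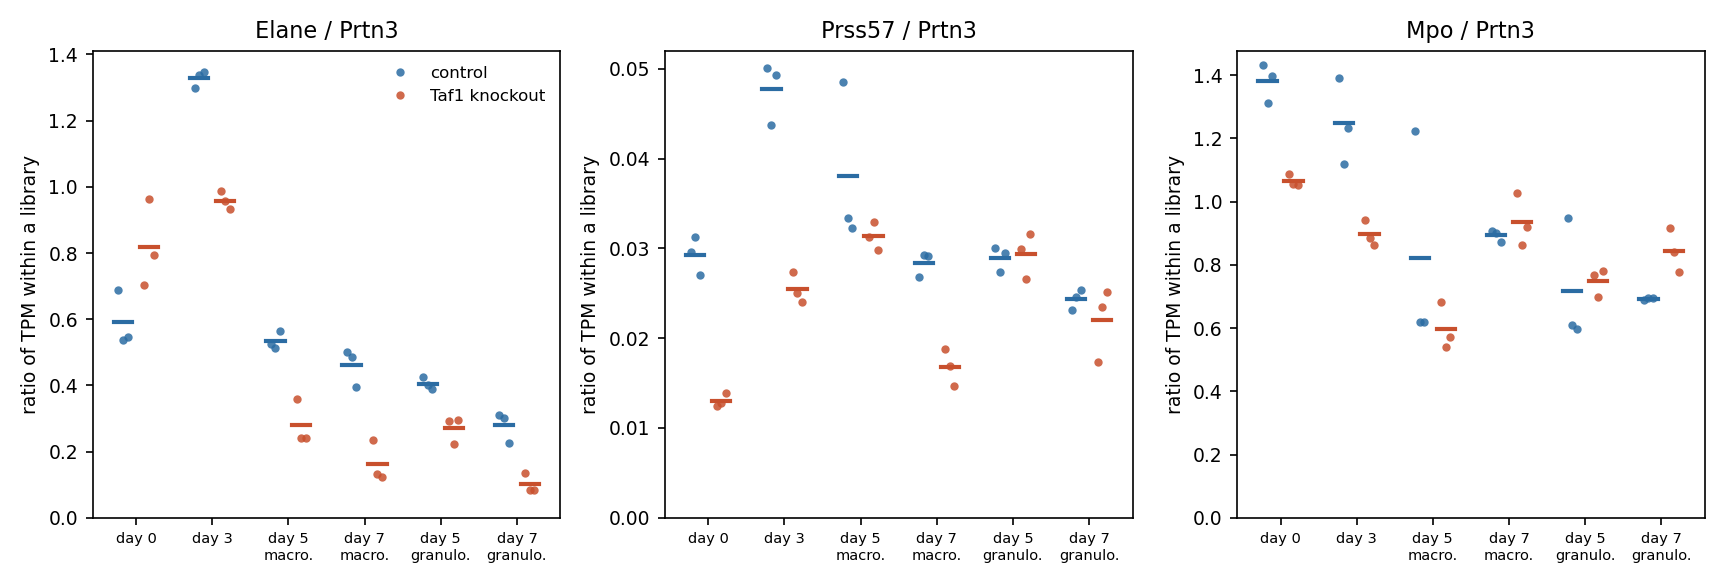
Ratio of the TPM of Elane, Prss57 and Mpo to that of Prtn3 within each library (linear axes from 0), with 1 point per library and bars at the group means. For Elane the 2 genotypes are separate at all 6 stages, with knockouts above controls at day 0 (0.819 against 0.592) and below them at the other 5. The day 0 gap is narrow, with the lowest knockout at 0.7022 and the highest control at 0.6895.

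Across libraries of a group the 6 genes moved together. In 27 of the 36 libraries all 6 deviated from their group mean in the same direction, above it in 14 and below it in 13, and in 31 libraries at least 5 did. Such counts and correlations were not made for other genes, so whether others did the same is not known. Over the 36 deviations Pearson's r between pairs ranged from 0.638 (Ctsg and Ms4a3) to 0.974 (Prtn3 and Prss57), a description in which points share their library and the 3 deviations of a group sum to 0. The largest deviations were those of Elane, 1.66 above its group mean on the log2 scale in knockout day 7 granulocyte replicate 1, 1.46 above it in knockout day 7 macrophage replicate 1 and 1.55 below it in control day 7 macrophage replicate 3. Of the 9 libraries with genes on both sides of the mean, day 5 control replicate 1 of each course had the widest spread: in the macrophage course Ctsg was 0.44 above and Ms4a3 0.80 below the mean, and in the granulocyte course Ctsg was 0.15 above and Ms4a3 0.94 below.

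**Figure D4:**
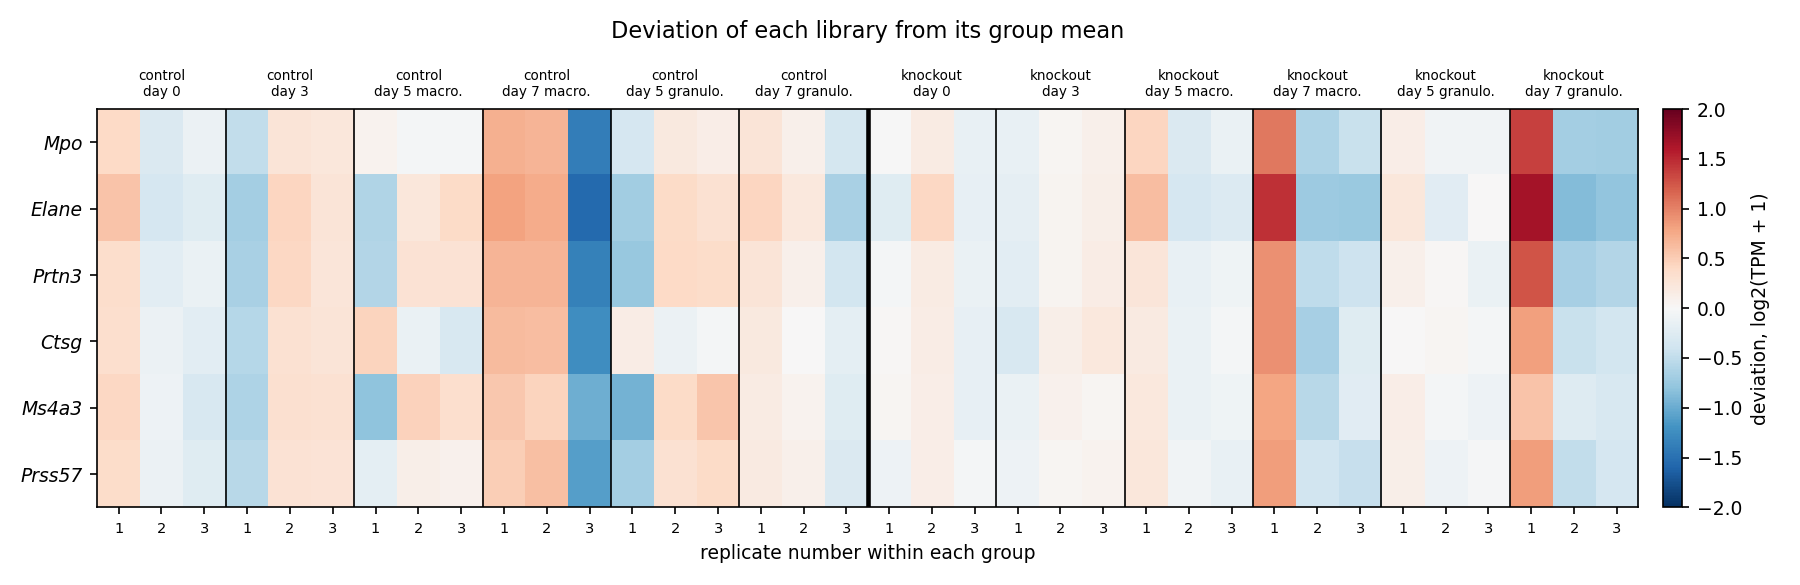
Deviation of every library from the mean of its group, in log2(TPM + 1), for the 6 genes (rows) and the 36 libraries (columns, by group and replicate number; red above, blue below the group mean). Whole columns share 1 colour in 27 of 36 libraries, most deeply in day 7 control macrophage replicate 3 and the day 7 knockout replicates 1.

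Over the 12 group means, the genes outside the 6 whose profile was most like their mean log2(TPM + 1), among 10006 genes of at least 5 TPM in 1 group, were Ubash3a (Pearson r = 0.986), Palm (0.981), Lppr3 (0.974), Plac8 (0.969), Klhl23 (0.963), Stk26 (0.961), Rasgrp2 (0.956), Svip (0.948), Myb (0.947) and Ampd2 (0.945). Of these Plac8 reached 3730 TPM in its highest group, Myb, a transcription factor of progenitors, 244 TPM, and the other 8 at most 95.7 TPM. Among the 6 themselves Ctsg was nearest to the mean they help to form (0.988, rank 1 of all genes) and Ms4a3 farthest (0.901, rank 49). The 12 means share genotype, culture and day, so these values describe the profile alone.

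The lists of related genes were described by counts over the 6 genotype comparisons, in the order day 0, day 3, day 5 and day 7 of the macrophage course, then day 5 and day 7 of the granulocyte course. In that order 13.1%, 26.5%, 5.11%, 27.4%, 9.2% and 32.1% of all genes tested were higher in knockouts. Lower were 10.2%, 26.7%, 37.9%, 12.5%, 22.8% and 12%. The counts of each list below are to be read beside these shares, and none was tested against them. Of 10 other promyelocyte genes 0 were higher in knockouts at every stage, and 2, 1, 6, 5, 4 and 5 were lower, with medians of 0.11, -0.19, -0.71, -0.62, -0.34 and -0.58 against all-gene medians of 0.06, -0.01, -0.23, 0.12, -0.09 and 0.17. Nkg7 was lower at all 6 stages, from 363 TPM in controls to 120.4 TPM at day 0 (-1.55 ± 0.44, adjusted p = 0.0143) and from 38.4 to 2.01 TPM at day 7 of the granulocyte course (-3.73 ± 0.28, 6.65e-09). Fcnb, ficolin B, did not pass at day 0 (adjusted p 0.228) and was lower by 4.06 ± 0.49 at day 7 of the granulocyte course (2.39e-06), from 94.3 to 4.74 TPM.

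Genes of granule protein processing and storage did not follow a single direction (11 tested; 3, 3, 1, 5, 1 and 1 higher and 1, 2, 3, 1, 5 and 3 lower). Ctsc, cathepsin C, which activates the granule serine proteases by removing their N-terminal dipeptide, was higher in knockouts at the first 5 of these stages, for example at 279.8 against 158 TPM at day 5 of the macrophage course (0.82 ± 0.10, adjusted p = 2.62e-06). At day 7 of the granulocyte course it was at 168 against 187 TPM (-0.15 ± 0.10, 0.224). Lyz2, lysozyme, was lower at day 7 of the granulocyte course (14809 against 20743 TPM, -0.48 ± 0.19, 0.0486) and higher at day 7 of the macrophage course (29505 against 15427 TPM, 0.90 ± 0.28, 0.0164). Of the 8 haem synthesis genes, whose product the peroxidase carries, 1, 4, 1, 4, 1 and 5 were higher and 1, 1, 2, 1, 1 and 1 lower. Uros, uroporphyrinogen III synthase, was higher at all 6 stages (1.25 ± 0.18 at day 7 of the granulocyte course, 1.59e-05).

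Secondary and tertiary granule genes, made at the next stage of maturation (6 of the 14 also stand in the late neutrophil list), were lower in 0, 4, 3, 9, 7 and 5 of 14 cases and higher in 2, 0, 1, 1, 0 and 2. At day 3 and day 5 of the macrophage course 26.7% and 37.9% of all genes were lower. Camp, cathelicidin, was lower at the 4 stages from day 5 on, by 5.25 ± 0.64 at day 7 of the granulocyte course (1131 to 28.0 TPM, adjusted p = 2.75e-06), a wider gap than that of any of the 6 primary granule genes there. Summed over the list, knockout libraries at day 7 of the granulocyte course held 29537 to 35211 TPM and control libraries 15726 to 24745 TPM, without overlap and in the opposite order to the primary granule genes. Such a sum is weighted to its most abundant members.

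The listed transcription regulators differed in direction, with 2, 2, 0, 2, 4 and 7 of 15 tested higher and 1, 4, 6, 2, 3 and 3 lower. At day 3 and day 5 of the macrophage course the lower counts were near the shares of all genes (26.7% and 37.9%). Gfi1, a repressor needed for granulocyte maturation, was lower in knockouts at the 4 stages from day 5 on, by 1.56 ± 0.30 at day 5 of the macrophage course (28.4 to 8.94 TPM, adjusted p = 0.000393) and 1.25 ± 0.23 at day 7 of the granulocyte course (15.1 to 6.16 TPM, 0.000209). Cebpe, a C/EBP factor of the promyelocyte to myelocyte step, was lower at day 7 of both courses (-1.43 ± 0.30, 0.000814, and -1.04 ± 0.26, 0.00275). Cebpa was higher at day 7 of the granulocyte course (73.6 against 49.9 TPM, 0.55 ± 0.11, 0.000516) and so was Runx1 (18.2 against 8.80 TPM, 0.95 ± 0.16, 9.69e-05). Spi1, the gene of PU.1, was at 299.95 against 258 TPM there (0.22 ± 0.09, 0.0496), and Myb did not pass (31.3 against 27.9 TPM, 0.16 ± 0.16, 0.427). In controls Myb fell at every step of both courses, from 244 TPM at day 0 to 69.0 at day 3, 11.2 at day 7 of the macrophage course and 27.9 at day 7 of the granulocyte course.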

How the data were processed

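The authors deposited 2 tables of TPM values, which keep no depth, made with RSEM (version not given) on mm10 per the submitters' processing notes, which also name DESeq2 1.38.3. The 12 day 0 and day 3 columns were equal in both. RNA was total RNA in a stranded KAPA library, per the labels' protocols. Groups came from the sample labels. Values were taken as log2(TPM + 1). Genes reaching 1 TPM in 3 or more libraries were tested with limma 3.58.1 (trend) in R 4.3.3, in a macrophage course fit (11953 genes), a granulocyte course fit (11905) and a fit of day 5 and day 7 of both (11553), each of 24 libraries. Day 0 and day 3 comparisons come from the macrophage course fit. Benjamini-Hochberg adjustment ran over all genes tested, in 27 comparisons. Genes named were the 6 members, genes of the lists and the 10 most alike over group means; 1 list gene is not reported here. The members and lists were chosen with earlier results of these data known. The code was tested on simulated data. By a rule that every same-numbered pair's deviations correlated above 0.1, replicate numbers paired the libraries in 9 comparisons. These were the knockout difference at day 5 of the macrophage course (0.182 to 0.300), the 4 knockout steps after day 3 and the 4 course comparisons. No main test used pairs, so the main p-values of these 9 do not account for the pairing. Alternatives were other pseudocounts, filters and scalings, a replicate block, fits of the contrast alone and leaving out libraries.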

Additional observations from a re-analysis of the deposited data

Results flagged for a closer look

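The step from day 3 to day 5 differed between genotypes in 8 tests of the difference itself (limma, adjusted over all genes tested). In the macrophage course the knockout step minus the control step was -1.788 for Mpo, -2.352 for Elane, -1.876 for Prtn3, -2.151 for Ctsg and -1.688 for Ms4a3 on the log2(TPM + 1) scale. In the granulocyte course it was -1.559 for Prtn3, -1.777 for Ctsg and -1.444 for Ms4a3. Both courses share the day 3 libraries, and only the Ctsg calls passed in every fit that left out 1 library.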

How the results depend on the processing

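TPM keeps no depth, so no counting error could be given, and groups of 3 libraries limit the precision. The calls at day 7 of the granulocyte course numbered 6 under every alternative except the fit of those groups alone, where Mpo had an adjusted p of 0.0711. No count of calls moved by over 1.5 times with a filter of 5 TPM or a pseudocount of 0.1 TPM. Where counts moved, the cause was not tested. Scaling also moved the calls over all genes: with median-of-ratios scaling the median difference went from 0.12 to -0.01 at day 7 of the macrophage course and from 0.17 to -0.02 at day 7 of the granulocyte course, and genes higher in knockouts went from 3274 of 4769 to 2222 of 4796 and from 3825 of 5250 to 2432 of 5359.

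Counts of the 6 genes called moved as follows. With pseudocount 5 TPM there was 1 call for the knockout difference at day 0 and 1 at day 7 of the macrophage course. With no filter there was 1 at day 7 of the macrophage course and 1 for the control step from day 3 to 5 of the granulocyte course. Median-of-ratios scaling left 1 for the knockout difference at day 5 of the macrophage course, 1 for the difference between steps from day 3 to 5 in either course and 1 for the control step from day 3 to 5 of the granulocyte course. With the most abundant genes left out there were 3 for the knockout difference at day 3, 1 at day 5 of the macrophage course, 0 at day 5 of the granulocyte course and 5 for the knockout step from day 5 to 7 of the granulocyte course. The granulocyte course fit gave 3 at day 3. Over all genes these settings gave, in the same order with macrophage before granulocyte, 2751, 4716, 4969, 6088, 4593, 3065, 3133, 6320, 6945, 4377, 4741, 5935 and 5951 calls. The main fits gave 2790, 4769, 4769, 5268, 5143, 4143, 2550, 5268, 6355, 5143, 3806, 4973 and 6355.

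Fitting the groups of a contrast alone gave 3 calls for the knockout difference at day 0, 4 at day 3, 0 at day 7 of the macrophage course and 2 at day 5 of the granulocyte course. The control steps gave 1 from day 3 to 5 and 3 from day 5 to 7 of the macrophage course and 1 from day 3 to 5 of the granulocyte course. The knockout step from day 3 to 5 of the granulocyte course gave 6, the difference between steps from day 0 to 3 gave 2 and the course comparison of day 5 knockouts gave 5. Over all genes these fits gave, in the same order, 2306, 6462, 4317, 2493, 3909, 2756, 3335, 3343, 4094 and 3980 calls. The main fits gave 2790, 6355, 4769, 3806, 6007, 4677, 5268, 1758, 3866 and 2090. With replicates 2 and 3 only, chosen after seeing the data, the granulocyte course gave 6 calls for the knockout difference at day 5, for both knockout steps after day 3 and for both differences between steps. It gave 4 and 3 for the control steps, and the control step from day 3 to 5 of the macrophage course gave 2. Over all genes the calls were, in the same order, 4332, 3534, 6218, 3629, 2037, 6515, 4594 and 6774. The main fits gave 3806, 1758, 4973, 2550, 1680, 5268, 4521 and 6007.

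With the replicate block there were 2 calls at day 3 (Ctsg added, adjusted p 0.0486) and 1 for the control step from day 3 to 5 of the granulocyte course (Elane lost, 0.0502). Prtn3 was lost for the difference between steps there (0.0545), Elane was gained for day 7 controls between courses (0.0261), and the block changed no other call of the 162. In the comparisons where the numbers did not pair the libraries, at most 4 of 6 libraries correlated best with their own number. Where they did pair, 2 to 6 of 6 did so, and this count does not set the comparisons apart.

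Summed TPM of the 6 with the most abundant genes left out was 20220 in day 0 controls and 27678 in day 0 knockouts, 4828.7 and 8640.2 at day 3, 3966.4 and 2120.9 at day 5 of the macrophage course, 4785.7 and 3381.6 at day 5 of the granulocyte course and 5027.1 in day 7 granulocyte controls. Median-of-ratios scaling gave 1594.9 in day 5 macrophage knockouts.

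Signs changed only for differences that had not passed. For the difference between steps from day 5 to 7 of the macrophage course, Prss57 was at -0.070 with pseudocount 0.1 TPM, -0.2705 with median-of-ratios scaling and -0.2522 without abundant genes, Ms4a3 at -0.2496 and -0.1889 with the last 2, and Elane at 0.1296 with replicates 2 and 3 only. At day 0 the knockout difference of Mpo was -0.01161 with median-of-ratios scaling, and that of Ms4a3 was 0.03785 without abundant genes and 0.142 with replicates 2 and 3 only. In the control step from day 5 to 7 of the granulocyte course median-of-ratios scaling put Ctsg at 0.06275 and Ms4a3 at 0.07322. Replicates 2 and 3 only put Prtn3 at -0.2049 and Prss57 at -0.3779 there, Ctsg at -0.1002 in the step before, Prss57 at -0.1226 for the knockout difference at day 3 and at -0.2224 between courses in day 5 controls.

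Leaving out 1 library at a time, calls ranged from 0 to 2 for the knockout difference at day 3, 0 to 4 at day 5 and 0 to 4 at day 7 of the macrophage course and 1 to 3 at day 5 of the granulocyte course. For control steps they ranged from 0 to 1 from day 3 to 5 in either course and 3 to 6 from day 5 to 7 of the macrophage course. For knockout steps they ranged from 3 to 4 (day 0 to 3), 3 to 6 (day 5 to 7, macrophage) and 2 to 6 (day 5 to 7, granulocyte). For differences between steps they ranged from 1 to 5 (day 3 to 5, macrophage), 1 to 4 (day 3 to 5, granulocyte) and 0 to 5 (day 5 to 7, granulocyte), and for the courses in day 7 knockouts from 1 to 5.

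Differences whose sign changed in such fits ranged as follows. For the knockout difference, Mpo ran from -0.07452 to 0.2701 and Ms4a3 from -0.2047 to 0.1618 at day 0, Prss57 from -0.1758 to 0.2453 at day 3 and Ctsg from -0.7756 to 0.1794 at day 7 of the macrophage course. For control steps, Prtn3 ran from -0.1886 to 0.429 (day 3 to 5, macrophage), Ctsg from -0.02667 to 0.4094 and Prss57 from -0.5035 to 0.1151 (day 3 to 5, granulocyte), and Elane from -0.5839 to 0.0862, Prtn3 from -0.07231 to 0.5086, Ms4a3 from -0.6061 to 0.1469 and Prss57 from -0.285 to 0.2431 (day 5 to 7, granulocyte). For the difference between steps from day 5 to 7 of the macrophage course, Elane ran from -0.924 to 0.2532, Prtn3 from -0.2597 to 0.7586, Ms4a3 from -0.3256 to 0.5635 and Prss57 from -0.4687 to 0.3807. Between courses, Elane ran from -0.2929 to 0.3571, Ms4a3 from -0.6614 to 0.2092 and Prss57 from -0.3223 to 0.2058 in day 5 controls and Elane from -1.109 to 0.4536 in day 7 knockouts, and the knockout effect at day 5 ran from -0.6423 to 0.2284 for Ms4a3 and from -0.6094 to 0.06514 for Prtn3.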
